A study of Mus musculus with 6 samples.

Results

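Interferon-stimulated genes are the transcripts that a cell raises when interferon binds its receptors, and the 55 genes described here encode effector proteins of that response. They were chosen by their symbols from a list of effector genes, with no measured value in the rule. The list was drawn up with earlier results of these data known. Each of the 55 matched 1 of the 49315 rows of the count table. Of the 55, 54 passed the filter on low counts and were tested, among 12274 tested genes. Ifit3b was the exception, with raw counts of 12, 4 and 5 under DMSO against 0, 1 and 3 under SKI-II. The genes are described in 11 families. With all libraries, the largest decreases with SKI-II were those of Oasl2, Ifit3, Rsad2 and Cmpk2. Without DMSO 1, a library that stood apart, the called members Rsad2, Ifit3 and Oasl2 led in this order, and Usp18 and Epsti1 came before Cmpk2. Isg20, Slfn5 and Ifi204 were higher with all libraries and in every fit that left 1 library out.

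In the textbook pathway, type I interferon binds a receptor made of Ifnar1 and Ifnar2, whose kinases Jak1 and Tyk2 phosphorylate transcription factors such as Stat2. With Irf9, Stat2 is part of a complex that binds the interferon-stimulated response element in promoters. Macrophages keep many of the target genes at a low tonic level and raise them on infection, when their products cut foreign RNA, block viral entry, tether budding particles or modify other proteins.

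RAW264.7 is a macrophage-like cell line from mouse, labelled wild type. The cells received 4 μg/mL of SKI-II, a small-molecule inhibitor of sphingosine kinases, or an equivalent amount of DMSO, its vehicle, and RNA was sequenced after 24 h from 3 libraries per group. The labels name no infection and no added interferon in either group. The labels do not say whether the libraries of a group came from separate cultures, so p-values measure the spread between these libraries, which may be technical. In bulk RNA, fewer cells that use a gene and less RNA per cell cannot be told apart.

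The libraries held 12495957 to 20050677 counts, and the 55 genes took 0.435% to 0.542% of the counts in DMSO and 0.311% to 0.379% in SKI-II. Mitochondrial genes took 1.07% to 1.25% in DMSO and 1.38% to 1.71% in SKI-II. All 10 macrophage markers were expressed. Their summed level was 145100 to 210700 normalized counts in DMSO and 93590 to 132600 in SKI-II. Lyz2 alone made up 88328 to 150574 of it in DMSO and 23620 to 61283 in SKI-II. The difference in the sum therefore follows Lyz2 and does not describe the markers as a group. Lyz2, Itgam and Adgre1 were lower and Cd14 and Fcgr1 higher with SKI-II (edgeR, adjusted p below 0.05 for each), and 5 were not called. Of the epithelial markers, 5 of 5 were at 0 in all libraries, as were Cd3g, Cd8a and Ncr1 of T and NK cells and Ms4a1 of B cells. The 6 fibroblast markers summed to 7.92 to 18.9 normalized counts in DMSO and 9.54 to 23.6 in SKI-II, and the 6 T and NK cell markers to 0.99 to 3.89 and 1.63 to 6.71. The 5 B cell markers summed to 1158 to 1386 and 602 to 774, nearly all of it Blnk, which macrophages also express. The part of these differences in the results was not tested.

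The library DMSO 1 stood apart from DMSO 2 and DMSO 3 in these genes. It was the highest of the 3 DMSO libraries in 40 of the 54 tested members (74.1%), against 36.9% of all tested genes. The median log2 ratio of DMSO 1 to the mean of the other two DMSO libraries was 0.61 over the members and -0.01 over all tested genes. Counts of called members and family medians are therefore given with and without DMSO 1, and so are single genes where leaving it out changed a call or moved the fold change by more than 1.5 times. SKI-II 2 was the lowest SKI-II library in 29 of the 54 (53.7%, against 28.6% of all tested genes).

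Promoter sequences were available from RefSeq (GRCm38.p6, a window of equal length for every gene, from upstream to just past the annotated start) for 43 of the 55 members. They are shown here because the interferon-stimulated response element, bound by the complex that holds Stat2 and Irf9, is the known promoter element of such genes. The core letters GAAANNGAA, searched on both strands, were in the promoters of 25 of the 43 (58.1%), against 9.76% of the 27025 genes with such a promoter and 8.73% of the 9195 tested ones. Letters of the gamma-activated site, TTCNNNGAA, which reads the same pattern on both strands, were in 8 of the 43 (18.6%), against 9.55% and 7.94%. The 130 bases before the start are printed for 6 members of different families. Of these, 5 were lower and Isg15 was higher, and the matches to GAAANNGAA on either strand are in capitals. Only called members with a whole match before the start were printed, the one with the largest change in a family. A match in each stretch therefore follows from the choice. Oasl2, Lgals3bp and Phf11d, which changed more than the printed member of their family, held no match in their promoters. Where matches overlap, their capitals run together.

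Ifit3: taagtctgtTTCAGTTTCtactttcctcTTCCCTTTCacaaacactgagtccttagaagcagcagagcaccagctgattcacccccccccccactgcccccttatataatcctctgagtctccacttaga
Oas3: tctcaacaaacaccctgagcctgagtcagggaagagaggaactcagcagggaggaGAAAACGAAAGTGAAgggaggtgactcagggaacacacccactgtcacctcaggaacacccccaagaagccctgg
Rsad2: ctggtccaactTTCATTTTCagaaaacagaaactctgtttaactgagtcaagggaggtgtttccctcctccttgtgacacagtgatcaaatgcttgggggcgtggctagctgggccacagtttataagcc
Isg15: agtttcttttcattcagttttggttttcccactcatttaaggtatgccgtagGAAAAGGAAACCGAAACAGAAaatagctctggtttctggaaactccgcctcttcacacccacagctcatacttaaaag
Bst2: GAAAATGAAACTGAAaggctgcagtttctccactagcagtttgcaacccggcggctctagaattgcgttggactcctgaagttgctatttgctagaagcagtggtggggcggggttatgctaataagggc
Phf11b: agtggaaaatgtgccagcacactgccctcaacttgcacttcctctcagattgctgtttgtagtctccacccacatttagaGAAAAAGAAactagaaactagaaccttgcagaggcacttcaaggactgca

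These stretches lie at chr19:34583399-34583528 (plus strand, Ifit3), chr5:120777660-120777789 (minus strand, Oas3), chr12:26456453-26456582 (minus strand, Rsad2), chr4:156200819-156200948 (minus strand, Isg15), chr8:71537473-71537602 (minus strand, Bst2) and chr14:59341331-59341460 (minus strand, Phf11b). Isg15 held 3 overlapping matches, Oas3 and Bst2 held 2, and Rsad2 and Phf11b held 1. Ifit3 held 2 in the stretch and a further 1 upstream of it. A match is a run of letters and not a measured binding site. The letters were in the promoters of 9 of the 20 members that were lower with SKI-II and had a promoter (45%), 3 of the 4 that were higher (75%) and 12 of the 18 that were not called (66.7%).

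With SKI-II, 26 of the 54 tested members were lower and 5 were higher, at an adjusted p below 0.05 (edgeR, quasi-likelihood F test, p-values adjusted by Benjamini-Hochberg over all tested genes). Of all tested genes, 19.7% were lower and 18.4% were higher by the same rule. Past a log2 fold change of 1 in size as well, 15 members were lower and 3 were higher, against 7.44% and 8.28% of all tested genes. The median log2 fold change was -0.68 over the members and 0.00 over all tested genes, and 38 of the 54 had a fitted change below 0. Every SKI-II library was below every DMSO library in 28 members and above in 7, with overlap in 19. Over all tested genes, 25.5% were below without overlap and 24.8% above. These shares describe the list, which was not compared with other lists.

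**Figure D1:**
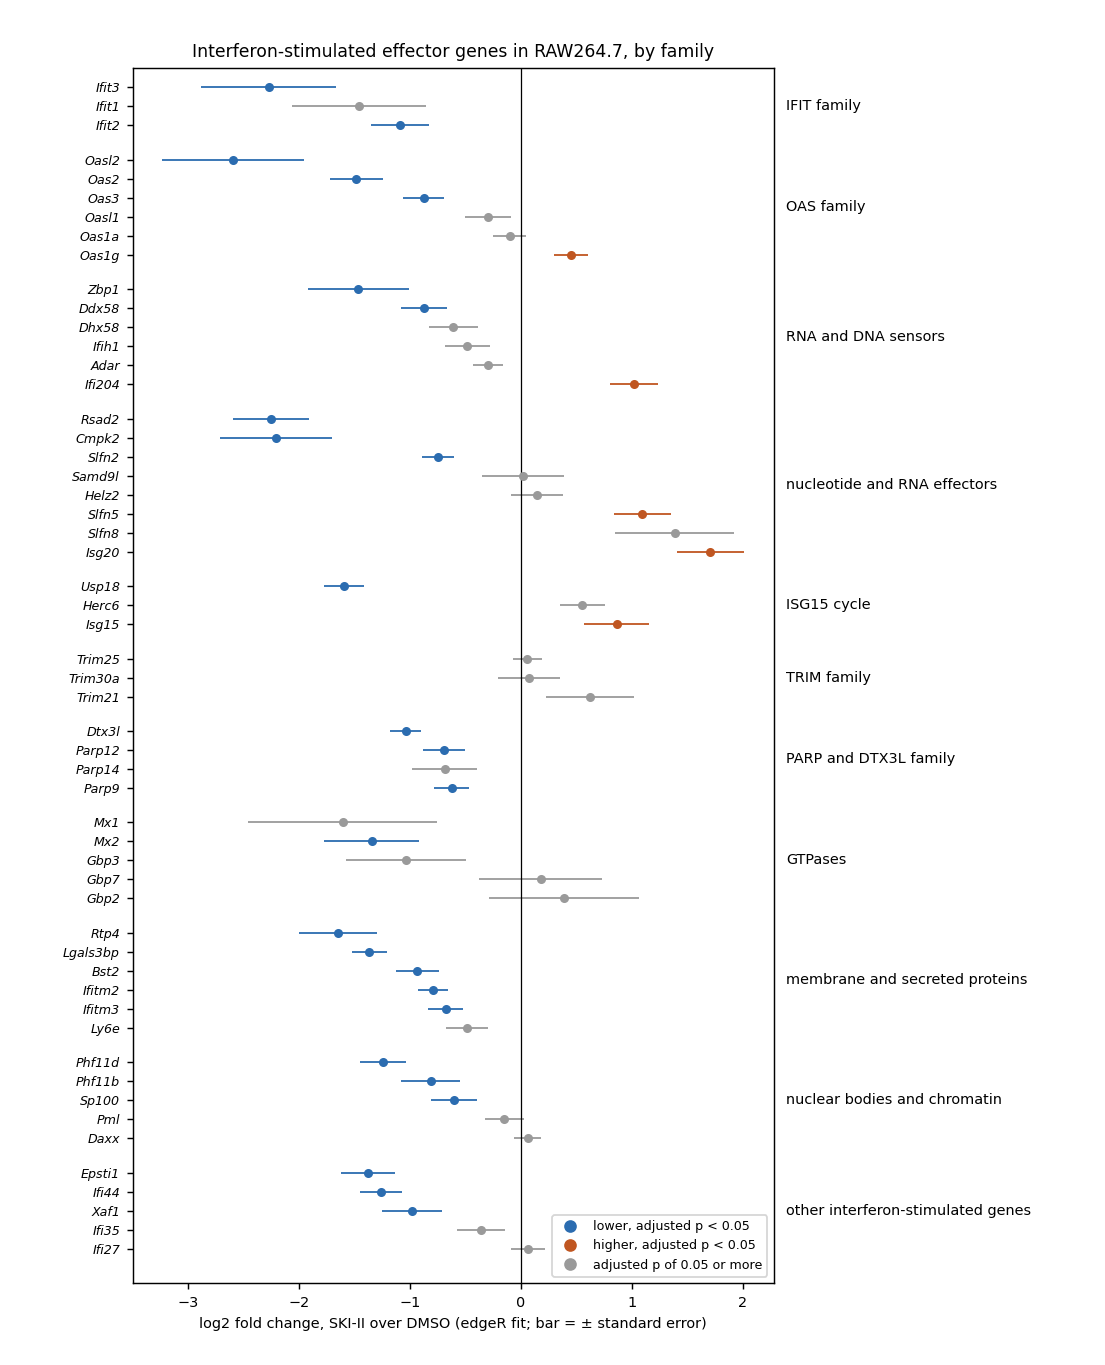
Fitted log2 fold change of SKI-II over DMSO (x axis) for the 54 tested members, grouped by family, with bars of ± 1 standard error from edgeR on 3 libraries per group. The 26 blue points were lower and the 5 orange points higher at an adjusted p below 0.05, and the values run from -2.59 (Oasl2) to 1.71 (Isg20).

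Without DMSO 1, 22 members were lower and 7 were higher, against 18.8% and 17.5% of the 12595 genes then tested, and the median over the members was -0.48. Past a log2 fold change of 1 in size, 12 were then lower and 6 were higher, against 7.3% and 8.88%. Of the 31 members called with all libraries, 27 were called in the same direction without DMSO 1. Mx2, Sp100, Xaf1 and Zbp1 were no longer called, and Slfn8 and Trim21 were then called as higher. When each of the 6 libraries was left out in turn, 23 of the 31 were called every time, 20 lower and the 3 higher members Isg20, Slfn5 and Ifi204. The other 8 were Isg15 and Sp100 (called in 1 of the 6 fits), Oas1g and Mx2 (2), Zbp1 and Phf11b (3), Xaf1 (4) and Parp12 (5). How often called genes of the whole table kept their call in all 6 fits was not worked out. Of the members not called with all libraries, Ifit1 and Parp14 were called as lower without DMSO 3, Adar without SKI-II 1, and Dhx58, Gbp3, Ifih1, Ly6e and Mx1 without SKI-II 3.

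**Figure D2:**
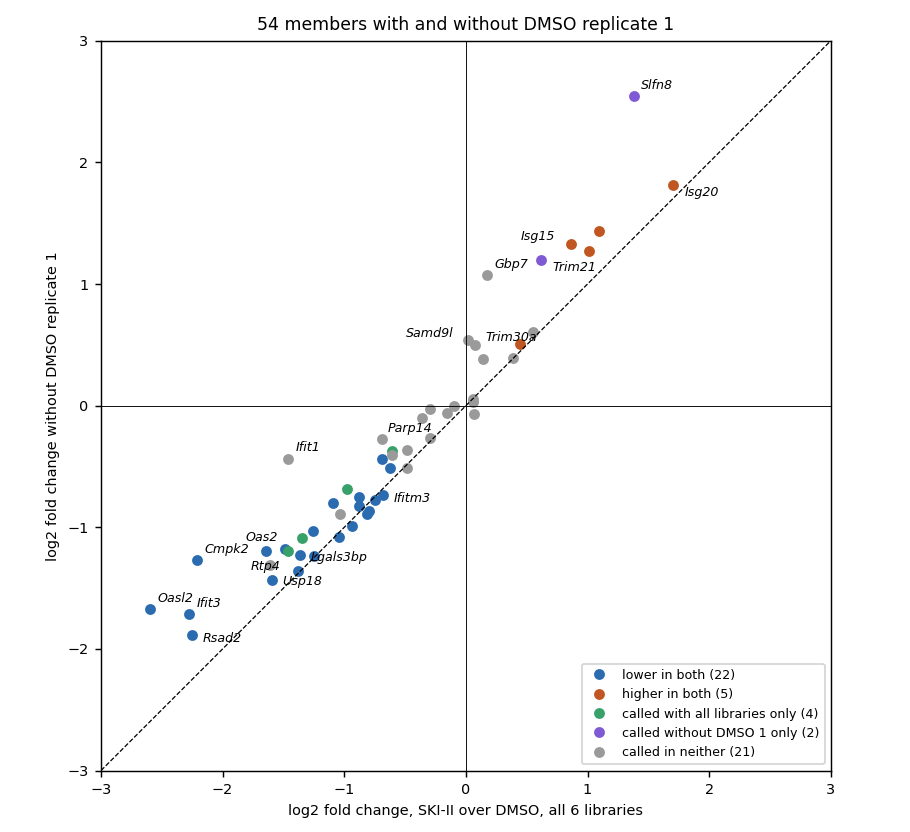
Fitted log2 fold change of the 54 tested members with all 6 libraries (x axis) against the value without DMSO replicate 1 (y axis), coloured by the call in each fit, with the dashed line at equal values. Of the members, 22 were lower in both and 5 higher in both, and Slfn8 moved from 1.38 to 2.54, the value farthest from the line.

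Of the IFIT proteins, Ifit1 binds foreign RNA that lacks the cap marks of host messages and holds it back from translation. Of the 3 IFIT genes tested, 2 were lower and none was higher, with a median log2 fold change of -1.46 (-0.80 without DMSO 1). Ifit3 had 99.1, 24.0 and 56.4 normalized counts in DMSO 1 to 3, against 19.0, 3.82 and 14.7 in SKI-II 1 to 3. All SKI-II libraries were below all DMSO libraries, and DMSO 1 was the highest. The log2 fold change was -2.27 ± 0.61 (SE, edgeR adjusted p = 0.0141), and -1.72 without DMSO 1. Ifit3 and Ifit3b are near copies, and 51.2% of the 50-base words of the Ifit3 exons also occur in another gene, so reads could be split between them. Ifit2, which restrains translation of viral RNA, had normalized counts of 634, 368 and 371 in DMSO 1 to 3, against 180.1, 180.3 and 282 in SKI-II 1 to 3. The DMSO 2 and DMSO 3 values were close and still above every SKI-II value, with a log2 fold change of -1.09 ± 0.26 (SE, edgeR adjusted p = 0.0088). Ifit1 was at 67.0 normalized counts in DMSO 1 and 8.96 to 19.0 in the 5 other libraries. Its log2 fold change of -1.46 ± 0.61 (SE, edgeR adjusted p = 0.0804) was -0.44 without DMSO 1, and it was not called in either fit. The 4 genes lie on chromosome 19 (GRCm38, from 34550694 to 34650009).

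The OAS enzymes make short oligoadenylates on double-stranded RNA, which switch on RNase L. Of 6 tested members, 3 were lower, 1 was higher and 2 were not called, with a median log2 fold change of -0.59 (-0.43 without DMSO 1). Oasl2, which carries ubiquitin-like domains beside its synthetase domain, had the largest decrease of all members with all libraries, and the third largest without DMSO 1. It had 267, 63.2 and 80.2 normalized counts in DMSO 1 to 3, against 41.4, 7.63 and 20.4 in SKI-II 1 to 3. The groups did not overlap, although DMSO 1 was 3.73 times the mean of DMSO 2 and DMSO 3. Its log2 fold change was -2.59 ± 0.64 (SE, edgeR adjusted p = 0.011) with all libraries, -1.67 without DMSO 1 and -3.27 without SKI-II 1. Its neighbour Oasl1, 11.0 kb away and without synthetase activity, had overlapping groups (542 to 649 normalized counts in SKI-II, 559.5 to 971 in DMSO) and a log2 fold change of -0.30 ± 0.20 (SE, edgeR adjusted p = 0.283).

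Oas2 had normalized counts of 906, 521 and 514 in DMSO 1 to 3, against 263, 243 and 189 in SKI-II 1 to 3. The groups did not overlap, with DMSO 1 high among the DMSO libraries, and the log2 fold change was -1.49 ± 0.24 (SE, edgeR adjusted p = 0.00116), and -1.18 without DMSO 1. Oas3, the member that binds the longest double-stranded RNA, had 4451, 3501 and 4269.7 normalized counts in DMSO 1 to 3, against 2708, 1624 and 2323 in SKI-II 1 to 3. It was lower with no overlap, at a log2 fold change of -0.88 ± 0.18 (SE, edgeR adjusted p = 0.00467). Oas1a had the highest level of the family per kb of exon over all libraries (539 normalized counts per kb in DMSO and 503 in SKI-II). In DMSO alone, Oas3 was above it, at 576 normalized counts per kb (314 in SKI-II). Oas1a had normalized counts of 1169, 831 and 1049 in DMSO 1 to 3, against 968, 859 and 1018 in SKI-II 1 to 3. Its groups overlapped, and the log2 fold change was -0.10 ± 0.15 (SE, edgeR adjusted p = 0.63). Oas1g was the member opposed to its family, with 586, 500.4 and 509.9 normalized counts in DMSO 1 to 3, against 632, 682 and 860.4 in SKI-II 1 to 3. All SKI-II libraries were higher, with a log2 fold change of 0.45 ± 0.15 (SE, edgeR adjusted p = 0.0421), and the call was kept in 2 of the 6 fits that left out a library. Of the 50-base words of Oas1a, 57.6% also occur in other genes, and of Oas1g 45.7%, mostly in one another, so their separate levels are uncertain. Oas2, Oas3, Oas1g and Oas1a lie in this order on chromosome 5 between 120730333 and 120907521 (GRCm38).

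The sensors bind nucleic acids in the cytoplasm. Of 6, 2 were lower, 1 was higher and 3 were not called, with a median log2 fold change of -0.55 (-0.38 without DMSO 1). Ddx58, which encodes the RNA helicase RIG-I, had normalized counts of 1559.9, 1089 and 1292 in DMSO 1 to 3, against 678, 531 and 935 in SKI-II 1 to 3. The groups were separate, with a log2 fold change of -0.88 ± 0.21 (SE, edgeR adjusted p = 0.00881). Zbp1, a sensor of left-handed nucleic acid that can start necroptosis, had 79.6, 44.2 and 52.5 normalized counts in DMSO 1 to 3, against 7.83, 22.9 and 31.8 in SKI-II 1 to 3, which are low counts. It was lower without overlap, with a log2 fold change of -1.47 ± 0.46 (SE, edgeR adjusted p = 0.0284), and was not called without DMSO 1 (-1.20, edgeR adjusted p = 0.0822). Ifi204, a DNA sensor of the HIN-200 group, went the other way, with normalized counts of 260.3, 149 and 172 in DMSO 1 to 3, against 443, 366 and 369.9 in SKI-II 1 to 3. The lowest SKI-II value was above DMSO 1, the highest DMSO value, and the log2 fold change was 1.01 ± 0.22 (SE, edgeR adjusted p = 0.00513), and 1.27 without DMSO 1. Of its 50-base words, 14.8% occur in the related gene Ifi211. Adar, which converts adenosine to inosine in double-stranded RNA, had the highest level of the group per kb of exon, with 3035, 2754 and 2778 normalized counts in DMSO 1 to 3, against 2669.8, 1969 and 2334 in SKI-II 1 to 3. Although its groups did not overlap, the log2 fold change of -0.30 ± 0.13 (SE, edgeR adjusted p = 0.107) was not called. Exons of Chrnb2 on the opposite strand cover 16.8% of the Adar exons. Dhx58, which encodes LGP2, and Ifih1, which encodes MDA5, had log2 fold changes of -0.61 and -0.48 and were not called (edgeR, adjusted p = 0.0551 and 0.0842).

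Among effectors that act on nucleotides and RNA were large decreases and the called members with the largest increases. Of 8 members, 3 were lower, 2 were higher and 3 were not called, and the median log2 fold change was 0.08 (0.46 without DMSO 1). Rsad2 encodes viperin, which turns CTP into a chain terminator of viral polymerases. It had normalized counts of 365, 157 and 225 in DMSO 1 to 3, against 72.7, 37.2 and 48.1 in SKI-II 1 to 3. The highest SKI-II value, 72.7, was well under the lowest DMSO value, 157, and the log2 fold change was -2.25 ± 0.35 (SE, edgeR adjusted p = 0.00094), and -1.88 without DMSO 1. Cmpk2, a mitochondrial nucleotide kinase that lies 12.8 kb from Rsad2 on chromosome 12 and is transcribed away from it, had 452, 126 and 111 normalized counts in DMSO 1 to 3, against 63.8, 43.9 and 42.4 in SKI-II 1 to 3. DMSO 1 was 3.81 times the mean of DMSO 2 and DMSO 3. The log2 fold change was -2.21 ± 0.51 (SE, edgeR adjusted p = 0.00768), and -1.27 without DMSO 1, still called.

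Isg20, an exonuclease of single-stranded RNA, had the largest increase among the members with all libraries, though Slfn8 was above it without DMSO 1. It had normalized counts of 71.9, 44.2 and 68.3 in DMSO 1 to 3, against 262, 127 and 218 in SKI-II 1 to 3. The lowest SKI-II library was above the highest DMSO library, and the log2 fold change was 1.71 ± 0.31 (SE, edgeR adjusted p = 0.00208), and 1.81 without DMSO 1. The schlafen genes regulate RNA use and cell growth, and 3 members lie on chromosome 11 between 82951349 and 83070678 (GRCm38). Slfn5 rose, with 435, 238 and 235 normalized counts in DMSO 1 to 3, against 808, 602 and 532 in SKI-II 1 to 3, and a log2 fold change of 1.09 ± 0.26 (SE, edgeR adjusted p = 0.00814). Slfn2, 44.3 kb beyond Slfn8, fell, with normalized counts of 978, 906 and 1110.0 in DMSO 1 to 3, against 619.9, 501 and 661 in SKI-II 1 to 3. Its DMSO 1 value lay between those of DMSO 2 and DMSO 3, and the log2 fold change was -0.75 ± 0.15 (SE, edgeR adjusted p = 0.00314). Slfn8, between them, had 84.5, 21.5 and 14.9 normalized counts in DMSO 1 to 3, against 139, 91.6 and 90.4 in SKI-II 1 to 3. All SKI-II values were higher, but with DMSO 1 at 4.65 times the mean of the other DMSO libraries the log2 fold change of 1.38 ± 0.54 (SE, edgeR adjusted p = 0.0686) was not called. Without DMSO 1 it was called (2.54, edgeR adjusted p = 0.00069). Samd9l, a growth-restricting antiviral factor, and Helz2, a helicase-like protein, had overlapping groups and log2 fold changes of 0.01 and 0.14.

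**Figure D3:**
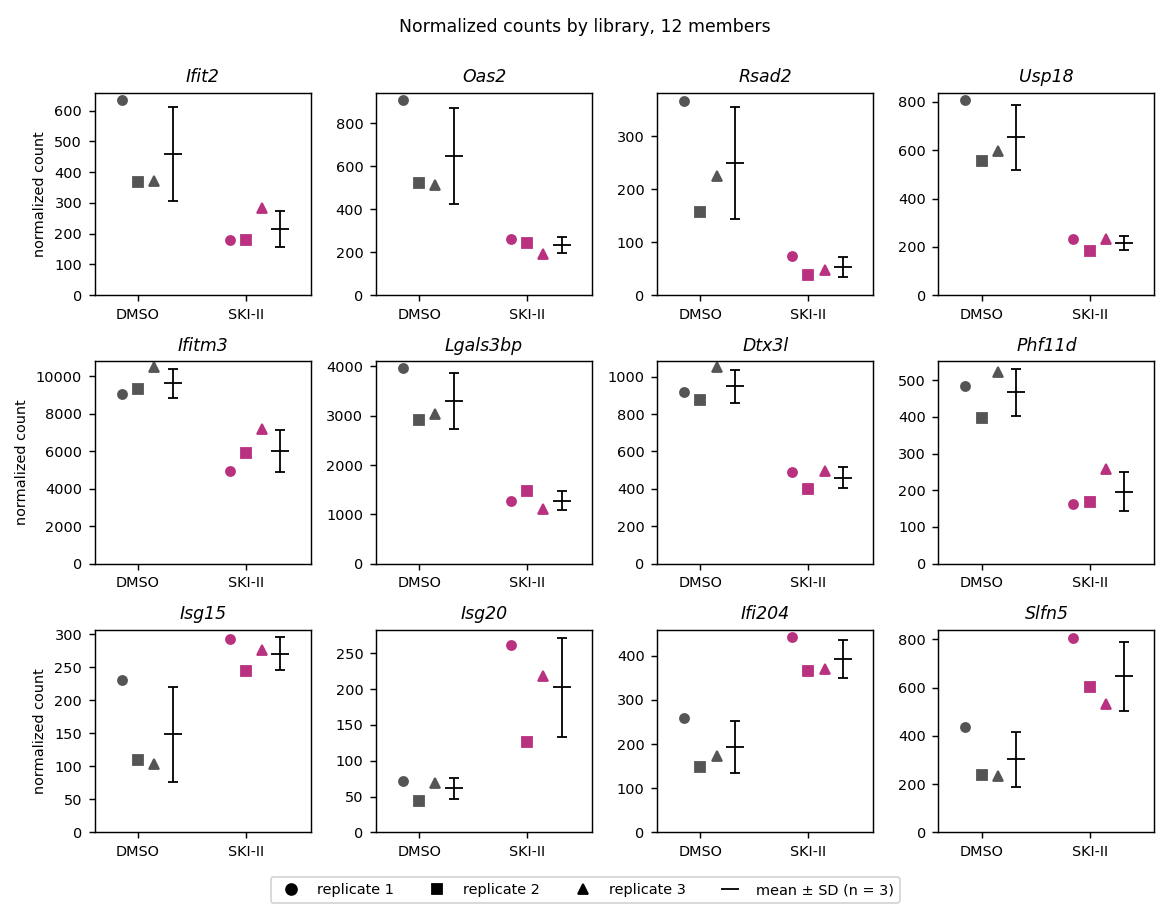
Normalized counts (y axis, from 0, a scale for each panel) of 12 members in the 3 DMSO and 3 SKI-II libraries, with marker shapes for replicates 1 to 3 and bars for the mean ± SD. In each panel the groups do not overlap: Ifit2, Oas2, Rsad2, Usp18, Ifitm3, Lgals3bp, Dtx3l and Phf11d are lower with SKI-II and Isg15, Isg20, Ifi204 and Slfn5 higher, and DMSO 1 is the highest DMSO point in all but Ifitm3, Dtx3l and Phf11d.

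ISG15 is a ubiquitin-like protein that is attached to other proteins after interferon, by the ligase Herc6 in mouse, and taken off by the protease Usp18. The gene of the modifier and that of the protease changed in opposite directions, and the median over the 3 genes was 0.55 (0.60 without DMSO 1). Isg15 had normalized counts of 231, 109.9 and 103 in DMSO 1 to 3, against 292, 243 and 275 in SKI-II 1 to 3. Its SKI-II values exceeded all DMSO values, with DMSO 1 nearer to them than to DMSO 2 and DMSO 3. The log2 fold change of 0.86 ± 0.29 (SE, edgeR adjusted p = 0.0415) was past the threshold with all libraries and, at 1.33, without DMSO 1, and in none of the 5 other fits that left out a library. Usp18, which also binds Ifnar2 and damps signalling, had 807, 557 and 597 normalized counts in DMSO 1 to 3, against 234, 184 and 231 in SKI-II 1 to 3. The highest SKI-II value, 234, was far under the lowest DMSO value, 557. At a log2 fold change of -1.60 ± 0.18 (SE, edgeR adjusted p = 0.000162) it had the smallest adjusted p of the 54 members in this fit. The SKI-II values of Herc6, 155 to 195 normalized counts, were above its highest DMSO value, 126, but the log2 fold change of 0.55 ± 0.20 (SE, edgeR adjusted p = 0.0558) was not called.

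Of the TRIM ubiquitin ligases, none of 3 was called, and the median log2 fold change was 0.07 (0.50 without DMSO 1). Trim25, which acts on RIG-I and had the highest level per kb of the family, had normalized counts of 4924, 4322 and 5209 in DMSO 1 to 3, against 5556, 4537 and 4954 in SKI-II 1 to 3. The groups overlapped, with a log2 fold change of 0.06 ± 0.13 (SE, edgeR adjusted p = 0.763), and the sign changed when DMSO 2 or SKI-II 1 was left out. Trim21, a cytosolic antibody receptor, had 95.2, 36.6 and 39.6 normalized counts in DMSO 1 to 3, against 109, 96.4 and 61.9 in SKI-II 1 to 3. It was not called with all libraries at a log2 fold change of 0.62 ± 0.40 (SE, edgeR adjusted p = 0.245), and was higher without DMSO 1 (1.20, edgeR adjusted p = 0.0207). Trim30a had a log2 fold change of 0.07, and 0.50 without DMSO 1 (edgeR, adjusted p = 0.055).

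Parp9 and Dtx3l form a complex that joins ADP-ribosylation and ubiquitylation, and Parp12 and Parp14 are ADP-ribosyltransferases. Of the 4, 3 were lower and Parp14, at a log2 fold change of -0.69 ± 0.29 (SE, edgeR adjusted p = 0.0905), was not called. The family median was -0.69, and -0.48 without DMSO 1. Dtx3l had normalized counts of 918, 877 and 1049 in DMSO 1 to 3, against 490.1, 398 and 494 in SKI-II 1 to 3. The lowest DMSO value, 877, was above the highest SKI-II value, 494, DMSO 1 was not the highest, and the log2 fold change was -1.04 ± 0.14 (SE, edgeR adjusted p = 0.000416). Parp9 had 853, 598 and 735 normalized counts in DMSO 1 to 3, against 486, 501 and 433 in SKI-II 1 to 3, without overlap, and a log2 fold change of -0.62 ± 0.16 (SE, edgeR adjusted p = 0.0111). The genes are transcribed in opposite directions from overlapping starts on chromosome 16, and 9.40% of the Parp9 exons overlap those of Dtx3l, so a few reads could belong to either. Parp12 had normalized counts of 1207, 782 and 727 in DMSO 1 to 3, against 574, 568 and 542 in SKI-II 1 to 3. It was lower, at a log2 fold change of -0.69 ± 0.19 (SE, edgeR adjusted p = 0.0163), and lost the call without SKI-II 2.

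The GTPases had low counts and wide standard errors, 0.43 to 0.85 on the log2 scale. Of 5, only Mx2 was called, and without DMSO 1 none was. The median log2 fold change was -1.04 (-0.89 without DMSO 1, -0.70 without SKI-II 1 and -1.83 without SKI-II 3). Mx2, a cytoplasmic dynamin-like protein against RNA viruses, had 83.5, 56.9 and 46.5 normalized counts in DMSO 1 to 3, against 19.0, 13.4 and 39.9 in SKI-II 1 to 3. The groups did not overlap, with a log2 fold change of -1.35 ± 0.43 (SE, edgeR adjusted p = 0.0317), and the call was lost without DMSO 1 (-1.09, edgeR adjusted p = 0.0912), while the value was -1.95 without SKI-II 3. Mx1, its nuclear relative, had normalized counts of 28.2, 12.6 and 19.8 in DMSO 1 to 3, against 2.24, 0 and 16.3 in SKI-II 1 to 3. The value of SKI-II 3 reached into the DMSO range, and the log2 fold change of -1.61 ± 0.85 (SE, edgeR adjusted p = 0.151) was not called. Without SKI-II 3 it was called, at a fitted -4.14 (edgeR, adjusted p = 0.00593) that rests on the values of 2.24 and 0. Gbp2, Gbp3 and Gbp7, guanylate-binding proteins that act on the vacuoles of pathogens, had overlapping groups and log2 fold changes of 0.39, -1.04 and 0.18. They had 2.53 to 62.2 normalized counts per library. Gbp3 was at -1.83 without SKI-II 3 (edgeR, adjusted p = 0.0247). Without DMSO 1 Gbp7 was at 1.08 (edgeR, adjusted p = 0.109), and its DMSO 1 value was 3.70 times the mean of DMSO 2 and DMSO 3.

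Among the membrane and secreted proteins, 5 of 6 were lower and none was higher, with a median log2 fold change of -0.86 (-0.93 without DMSO 1). Over all libraries, the 4 members with the highest levels per kb of exon belong to this group. In SKI-II alone, Ifi27 of another family was above Bst2 (1767 against 1398 normalized counts per kb). DMSO 1 was the highest DMSO library in 2 of the 6. Ifitm3, which stops viruses from fusing in endosomes and had the highest level per kb of all members (14183 normalized counts per kb in DMSO, 8856 in SKI-II), had 9043, 9307 and 10498 normalized counts in DMSO 1 to 3, against 4923, 5897 and 7192 in SKI-II 1 to 3. The groups were apart, with a log2 fold change of -0.68 ± 0.16 (SE, edgeR adjusted p = 0.00792). Ifitm2, 53.6 kb away on chromosome 7 with 48.5% of its 50-base words in other genes, had a log2 fold change of -0.79 ± 0.13 (SE, edgeR adjusted p = 0.00144). Bst2, or tetherin, which holds budding virions at the cell surface, had normalized counts of 2271, 2121 and 2845 in DMSO 1 to 3, against 1074, 1049.6 and 1664 in SKI-II 1 to 3. The SKI-II values were all below the lowest DMSO value, with a log2 fold change of -0.93 ± 0.19 (SE, edgeR adjusted p = 0.00433). Lgals3bp, a secreted glycoprotein that binds galectins, had 3958, 2906 and 3041 normalized counts in DMSO 1 to 3, against 1264, 1474 and 1102 in SKI-II 1 to 3. All SKI-II values were below all DMSO values, with a log2 fold change of -1.37 ± 0.16 (SE, edgeR adjusted p = 0.000172). Rtp4, a chaperone of receptors, had normalized counts of 519, 221 and 260.4 in DMSO 1 to 3, against 121, 66.8 and 132 in SKI-II 1 to 3. The groups were apart, with a log2 fold change of -1.65 ± 0.35 (SE, edgeR adjusted p = 0.00516), and -1.19 without DMSO 1. Ly6e, a surface protein that restricts coronaviruses, overlapped between groups (21438 to 29788 normalized counts in DMSO, 15608 to 22466 in SKI-II) and was not called, with a log2 fold change of -0.48 ± 0.19 (SE, edgeR adjusted p = 0.0707).

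Pml, Sp100 and Daxx are components of the nuclear bodies that silence incoming viral genomes, and Phf11b and Phf11d encode PHD-finger proteins. Of 5, 3 were lower and none was higher, with a median log2 fold change of -0.60 (-0.37 without DMSO 1). Phf11d had 485, 395 and 521 normalized counts in DMSO 1 to 3, against 163, 168 and 257 in SKI-II 1 to 3. All SKI-II values were below all DMSO values, and the log2 fold change was -1.25 ± 0.21 (SE, edgeR adjusted p = 0.00143), and -1.23 without DMSO 1. Phf11b, 6.1 kb away on chromosome 14, had normalized counts of 170.0, 153 and 236 in DMSO 1 to 3, against 76.1, 105 and 135 in SKI-II 1 to 3. Its log2 fold change was -0.81 ± 0.26 (SE, edgeR adjusted p = 0.0336), the call was kept in 3 of 6 fits that left out a library, and 47.1% of its 50-base words occur in other genes. Sp100 had 734, 407 and 536 normalized counts in DMSO 1 to 3, against 356, 356 and 393 in SKI-II 1 to 3. The SKI-II libraries were close together just below DMSO 2, and the call, at a log2 fold change of -0.60 ± 0.20 (SE, edgeR adjusted p = 0.0399), was lost without DMSO 1 (-0.37, edgeR adjusted p = 0.12). Daxx, the family member with the highest level per kb, had normalized counts of 916, 975 and 916 in DMSO 1 to 3, against 1019, 881 and 1027 in SKI-II 1 to 3. Its values overlapped, with a log2 fold change of 0.06 ± 0.12 (SE, edgeR adjusted p = 0.727), and Pml also overlapped, with a log2 fold change of -0.15.

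Of the 5 remaining genes, 3 were lower, with a median log2 fold change of -0.98 (-0.69 without DMSO 1). Epsti1 had 460.4, 387 and 479 normalized counts in DMSO 1 to 3, against 104, 191 and 213 in SKI-II 1 to 3. DMSO 1 lay between DMSO 2 and DMSO 3, all were above every SKI-II value, and the log2 fold change was -1.38 ± 0.24 (SE, edgeR adjusted p = 0.00191). Ifi44, which encodes a cytoplasmic protein, had normalized counts of 2513, 1595 and 1624 in DMSO 1 to 3, against 712, 769 and 911 in SKI-II 1 to 3. The groups were apart, with a log2 fold change of -1.26 ± 0.19 (SE, edgeR adjusted p = 0.000787), and -1.03 without DMSO 1. Xaf1, a partner of the apoptosis inhibitor XIAP, had 221, 128 and 132 normalized counts in DMSO 1 to 3, against 87.3, 67.7 and 88.8 in SKI-II 1 to 3. Its groups did not overlap, and the call, at a log2 fold change of -0.98 ± 0.27 (SE, edgeR adjusted p = 0.0168), was lost without DMSO 1 (-0.69, edgeR adjusted p = 0.0541). Ifi27, the gene with the highest level per kb of this family, had normalized counts of 2064, 2638 and 2736 in DMSO 1 to 3, against 2345, 2374 and 3059 in SKI-II 1 to 3. It did not differ beyond the spread, at a log2 fold change of 0.07 ± 0.15 (SE, edgeR adjusted p = 0.77), and its sign changed without DMSO 1 or without SKI-II 3. Ifi35 had overlapping groups and a log2 fold change of -0.36.

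**Figure D4:**
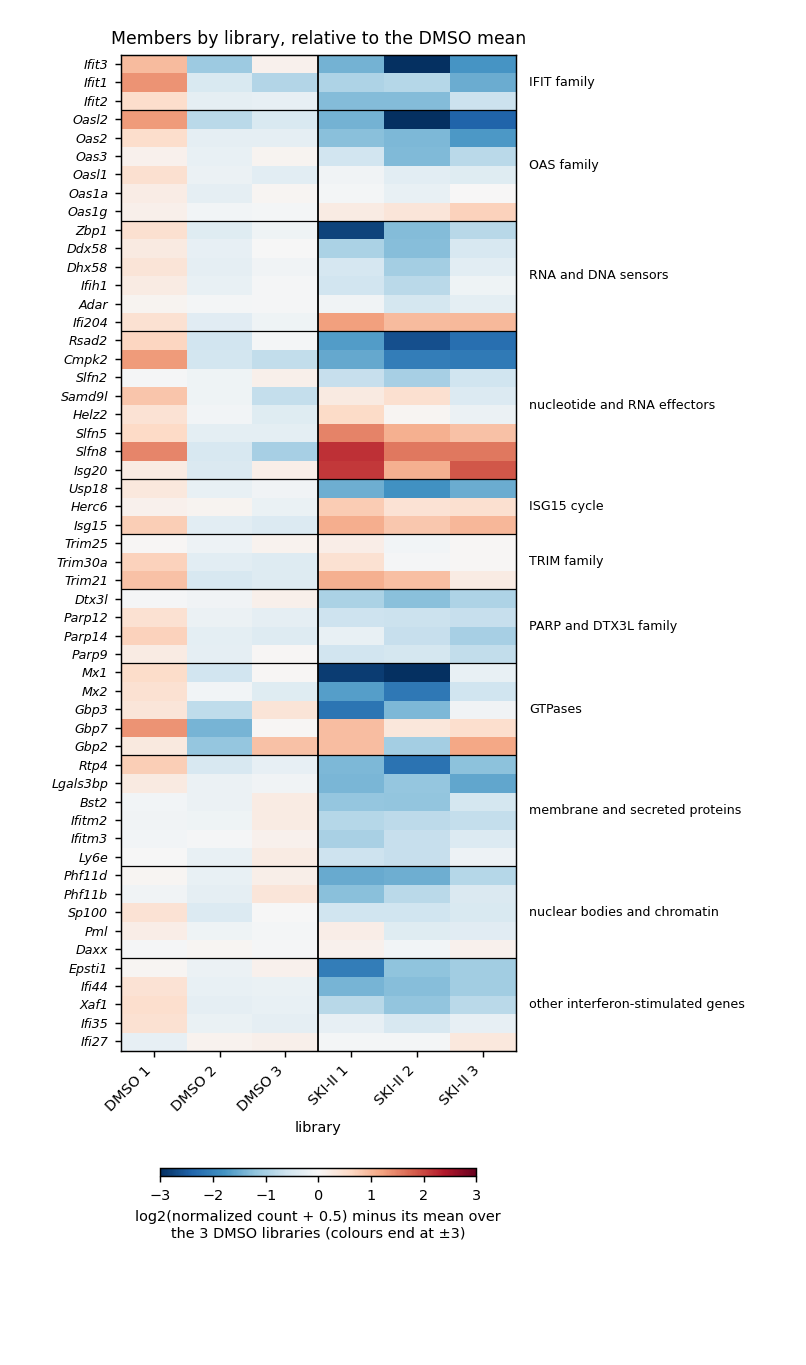
Each row is 1 of the 54 tested members and each column 1 library. Colour gives log2(normalized count + 0.5) minus the mean of the 3 DMSO libraries, blue below and red above, with the scale ended at ± 3. DMSO 1 is the reddest DMSO column in 40 rows, every family but the TRIM ligases holds rows that are blue in all SKI-II columns, and Oas1g, Ifi204, Isg20, Slfn5, Slfn8, Isg15, Herc6, Trim21 and Gbp7 are red in all of them.

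Members near each other on a chromosome did not always share a direction. Rsad2 and Cmpk2, Ifit2 and Ifit3, Oas2 and Oas3, Ifitm2 and Ifitm3, Phf11b and Phf11d, and Dtx3l and Parp9 were lower as pairs. In the schlafen cluster and in the Oas1 to Oas3 cluster, lower and higher members lay in the same cluster. These are descriptions of the called directions, and the differences between these genes were not tested.

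The other genes of the pathway were described from a list of 41, of which 30 were tested, 9 were lower and 2 were higher, against 19.7% and 18.4% of all tested genes. Their median log2 fold change was -0.14. Without DMSO 1, 7 were lower and 4 were higher, against 18.8% and 17.5%, with Irf3 (0.54) and Tlr3 (1.00) then called as higher and Irf1 (-0.52) and Irf9 (-0.46) no longer called. Of the 9 ligands on the list none could be tested. Ifnb1, the interferon that macrophages make first, had raw counts of 4, 0 and 0 under DMSO against 0, 4 and 0 under SKI-II. The 8 others, 5 alpha interferons among them with interferon gamma and 2 lambda interferons, were at 0 in all 6 libraries. Over a group, a count of 0 allows up to 3 counts, which is 0.0659 CPM in DMSO and 0.0588 in SKI-II and covers counting error only.

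The receptor of type I interferon was expressed in both groups without a called change. Ifnar1 had 1131, 1108 and 1116 normalized counts in DMSO 1 to 3, against 1130.1, 987 and 928 in SKI-II 1 to 3, with a log2 fold change of -0.14 ± 0.12 (SE, edgeR adjusted p = 0.396). Ifnar2 had normalized counts of 1262, 1402 and 1569 in DMSO 1 to 3, against 1569, 1462 and 1824 in SKI-II 1 to 3, with a log2 fold change of 0.20 ± 0.13 (SE, edgeR adjusted p = 0.278). The values of both genes overlapped between groups. Both chains of the interferon gamma receptor, Ifngr1 and Ifngr2, were lower (log2 fold change -0.94 and -0.51), and the call of Ifngr2 was kept in 4 of the 6 fits that left out a library. Of the kinases, Jak2, which serves the interferon gamma receptor, was higher, with 895, 864 and 1044 normalized counts in DMSO 1 to 3, against 1496, 1551 and 1139.8 in SKI-II 1 to 3, and a log2 fold change of 0.58 ± 0.15 (SE, edgeR adjusted p = 0.0128). Tyk2 was lower at -0.38, and Jak1 was not called at 0.22. The calls of Jak2 and Tyk2 were each kept in 4 of the 6 fits that left out a library.

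Of the 8 STAT and IRF factors, 3 were lower and none was higher. Irf7, which drives the alpha interferon genes and is itself an interferon-stimulated gene, had normalized counts of 2224, 1649 and 2533 in DMSO 1 to 3, against 388, 250.0 and 712 in SKI-II 1 to 3. The highest SKI-II value, 712, was under the lowest DMSO value, 1649, DMSO 1 was not the highest, and the log2 fold change was -2.24 ± 0.32 (SE, edgeR adjusted p = 0.000656), and -2.23 without DMSO 1. Stat2 had 1259.8, 938 and 861 normalized counts in DMSO 1 to 3, against 1006, 718 and 766 in SKI-II 1 to 3, with overlap, and a log2 fold change of -0.30 ± 0.18 (SE, edgeR adjusted p = 0.224). Irf9, the DNA-binding subunit of the complex with Stat2, had normalized counts of 751, 564 and 594 in DMSO 1 to 3, against 422, 367 and 483 in SKI-II 1 to 3. It was lower, at a log2 fold change of -0.58 ± 0.16 (SE, edgeR adjusted p = 0.0183), and was not called without DMSO 1 (-0.46, edgeR adjusted p = 0.0503). The calls were kept in 4 of the 6 fits that left out a library for Irf9 and in 3 for Irf1, which was lower at -0.61. Irf2, Irf3, Irf5 and Irf8 were not called, at -0.15 to 0.37.

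Among 11 Toll-like receptors, nucleic acid sensors and adaptors, 2 were lower, and the 1 that was higher, Tlr4, is no receptor of nucleic acid. Tlr7, the endosomal receptor of single-stranded RNA, had 1364, 1097 and 900.1 normalized counts in DMSO 1 to 3, against 431, 473 and 503 in SKI-II 1 to 3, lower without overlap, with a log2 fold change of -1.25 ± 0.16 (SE, edgeR adjusted p = 0.000355). Tlr4, the receptor of lipopolysaccharide, had normalized counts of 855, 728 and 647 in DMSO 1 to 3, against 1180.5, 1253 and 1183 in SKI-II 1 to 3, higher without overlap, with a log2 fold change of 0.70 ± 0.13 (SE, edgeR adjusted p = 0.00291). Mb21d1, which encodes the DNA sensor cGAS, was lower at -0.92. Mavs, Tmem173, Tbk1, Ticam1 and Myd88, which relay the signals, were not called, at -0.19 to 0.36. Tlr9 (-0.66, and -0.28 without DMSO 1), Tlr3 (0.58) and Ikbke (0.15) were not called with all libraries either. Of the inhibitors, the phosphatase Ptpn6 was lower, with 5376, 4055 and 4054 normalized counts in DMSO 1 to 3, against 1555, 2735 and 2088 in SKI-II 1 to 3, and a log2 fold change of -1.08 ± 0.20 (SE, edgeR adjusted p = 0.00262). Socs3, Pias1 and Ptpn2 were not called, and Socs1 had 0 to 5 raw counts per library, too few to test.

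**Figure D5:**
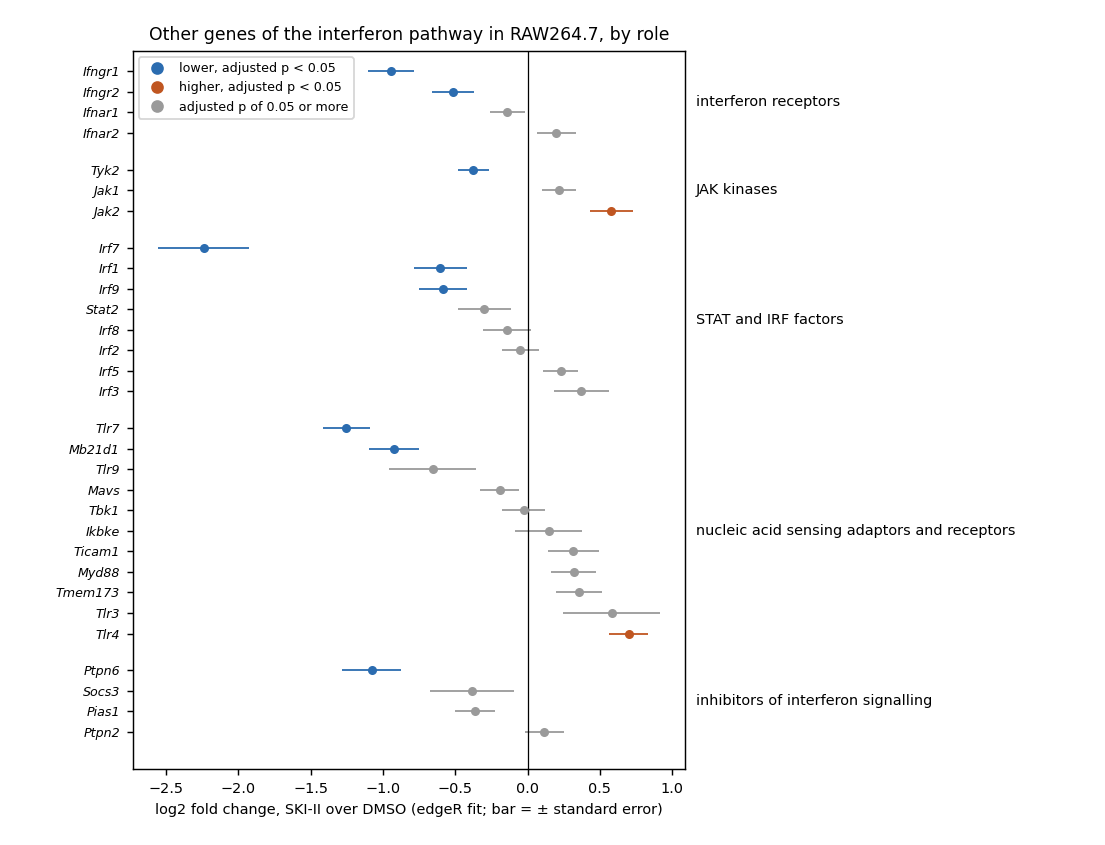
Fitted log2 fold change of SKI-II over DMSO (x axis) for the 30 tested genes of the interferon pathway that are not members, grouped by role, with bars of ± 1 standard error from edgeR on 3 libraries per group. Irf7 (-2.24) lies farthest left and Tlr4 (0.70) farthest right, and the receptor chains Ifnar1 and Ifnar2 lie near 0.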

How the data were processed

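RNA was sequenced from RAW264.7 cells, 3 libraries with DMSO and 3 with 4 μg/mL of SKI-II, grouped by the sample labels. Per the labels, mRNA was enriched with oligo(dT) beads and libraries were made with the NEBNext Ultra II RNA kit. The submitters' processing notes name Trimmomatic 0.36, STAR 2.5.2b, featureCounts of Subread 1.5.2 and DESeq2. The deposited table used here holds the authors' raw counts of reads per gene, with no normalization. Which build and annotation were used, and whether strand was counted, is not given in the sources used here. Overlapping genes are therefore uncertain. No column was left out for want of a sample (0 such columns).

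Gene names and positions are those of GENCODE M21 on GRCm38, which named 49056 of 49315 identifiers, and symbols were also matched through RefSeq synonyms. The main test was edgeR 4.0.16 in R 4.3.3: TMM scaling, the expression filter by group (minimum count 10, minimum total 15), the quasi-likelihood F test and Benjamini-Hochberg adjustment over 12274 genes, called at an adjusted p below 0.05. The study's own tool, DESeq2, was an alternative. To normalize, each count was scaled to a library of 16042438 counts, the mean TMM effective size. The common biological coefficient of variation was 17.5%. No pair of libraries of a group agreed within sampling noise (chi-square per degree of freedom 15.4 to 58.1), so each counted as 1 replicate.

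The members, families, pathway list and markers were chosen with earlier results of these data known. Named in full are, per family, up to 3 called members with the largest change, the one with the most normalized counts per kb of exon, and called members opposed to the family median. Of the pathway list they are Ifnb1, Ifnar1, Ifnar2, Stat2, Irf9, Irf7 and up to 3 called genes with the largest change in each direction (only 2 were higher). Library values of other genes (Ifit1, Ifit3b, Oasl1, Slfn5, Slfn8, Herc6, Trim21, Mx1 and Ly6e) were added after their values were seen. A pathway gene and a marker gene of these lists are not reported here. Alternatives were DESeq2 1.42.0, limma-voom (limma 3.58.1), RLE scaling, library size alone, no filter, at least 10 counts in every library, the replicate number as a block, glmTreat with a threshold of 1 on log2 fold change, and each library left out. The tests were checked on simulated counts. Figures were drawn with matplotlib 3.10.9.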

Additional observations from a re-analysis of the deposited data

How the results depend on the processing

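The median log2 fold change of the members stayed below 0 under every alternative (-0.79 to -0.48) except glmTreat, for which no median was taken. Of the 31 members called with all libraries, all were called in the same direction by DESeq2, RLE scaling, no filter and the replicate block, 30 by limma-voom, 29 with library size alone and 28 with at least 10 counts in every library, where Ifit3, Oasl2 and Zbp1 were not tested. DESeq2 called 28 lower and 6 higher, with Dhx58, Ly6e and Slfn8 added (15.8% and 15.3% of the 15432 genes with an adjusted p). With no filter 33 were lower and 6 higher, with Dhx58, Ifih1, Ifit1, Ifit3b, Ly6e, Mx1, Parp14 and Slfn8 added (11.1% and 11.4% of 22960 genes). Higher members numbered 5 and were 3 with library size alone and 3 to 7 with a library left out. Higher members past a log2 fold change of 1 numbered 3, and 1 to 6 with a library left out. Testing for changes past 1 on the log2 scale (glmTreat) called 0 higher and 2 lower members (Usp18 and Rsad2), against 15 lower by the fitted size alone. Higher pathway genes numbered 2, and 1 to 4 with a library left out. With a library left out, the log2 fold change of Trim25 ran from -0.0278 to 0.127 and that of Ifi27 from -0.0728 to 0.14. The cause of these shifts was not tested. Over the named genes, 516 values kept their direction and side of the threshold, 34 lost the call, 2 gained it and 4 changed sign. Of the family medians, 130 moved by less than the spread between libraries and 13 by more.

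Replicate numbers were not shown to pair the samples: deviations of same-numbered libraries correlated at 0.25, 0.01 and 0.46, and DMSO 1 correlated best with SKI-II 2 (0.30). With the replicate block, 38 members were called, 31 lower and 7 higher, with Adar, Dhx58, Herc6, Ifih1, Ly6e, Parp14 and Slfn8 added, while 23% of all tested genes were lower and 22.5% higher. The members past 1 in size were then 15 lower and 4 higher, the pathway genes 9 lower and 3 higher, and the median of the members was -0.64.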
